A study of Mus musculus with 8 samples.

Results

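The methionine cycle turns methionine into S-adenosylmethionine (SAM), the methyl donor of most cellular methylation reactions, and recovers methionine from the homocysteine that is left. The transsulfuration pathway draws homocysteine off the cycle and turns it into cysteine, a building block of glutathione, and the salvage pathway returns methylthioadenosine, a by-product of polyamine synthesis, to methionine. The mRNA of 9 genes listed under these routes was followed in mouse lung adenocarcinoma cells with and without a knockout of Stk11. Protein and enzyme activity were not measured here. Stk11 encodes the kinase LKB1, an activator of AMPK and of related kinases that is often lost in lung adenocarcinoma. The genes were chosen by name: Mat2a and Mat2b for SAM synthesis, Ahcy for the release of homocysteine, and Ahcyl1 as a relative of Ahcy in sequence. Mtr and Mtrr were chosen for the remethylation of homocysteine, Mtap for salvage, and Cbs and Cth for transsulfuration. They are 9 of 56884 annotated genes in the deposited count table, and 8 of them had enough counts to enter the test, which covered 13707 genes. Cbs had too few.

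Lacun3 is a mouse lung adenocarcinoma line. One group was the parental line (STK11 WT, 4 libraries) and the other was the same line after CRISPR knockout of Stk11 (STK11 KO, 4 libraries). Both groups were grown without treatment in serum-containing DMEM and collected in log growth, and polyadenylated RNA was sequenced. The labels call the 4 libraries of a group biological replicates of a single edited or parental line and do not say whether the edited cells were 1 clone or a pool, so the p-values measure the spread between cultures of these lines and not between independent knockouts.

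The assigned counts per library ran from 18837263 to 21101904 in WT and from 21441601 to 25715008 in KO, so that 1 count was worth 0.0388 to 0.0515 counts-per-million (CPM). Levels are given in CPM after TMM scaling, as mean ± SD over n = 4 libraries. TMM is meant to correct for differences in RNA composition and assumes that most genes are unchanged. With 67.9% of genes passing the test below, that assumption is unsure. The TMM factors were 1.02 to 1.03 in WT and 0.942 to 1.00 in KO. A difference is the log2 fold change of KO over WT ± its standard error from edgeR's quasi-likelihood test. "Rose" and "fell" mean a Benjamini-Hochberg adjusted p under 0.05 over all genes tested. Stk11 itself (chromosome 10, 79951637 to 79966516, plus strand, GRCm39) was at 64.9, 67.1, 68.4 and 64.7 CPM in WT replicates 1 to 4 and at 35.4, 35.1, 33.5 and 35.0 CPM in KO replicates 1 to 4, a fall of the mRNA to 52.4% of WT. KO replicate 3, the deepest library, stood apart from the rest: the chi-square per degree of freedom was 14.1 to 20.4 in its pairs with other KO libraries, against 4.76 to 9.51 between the other KO libraries and 3.25 to 7.49 between WT libraries. The epithelial genes Krt7, Krt8, Krt18, Krt19, Cdh1 and Epcam were present. Of these, Krt7 fell from 1181 ± 25.4 to 317 ± 35.7 CPM (log2 fold change −1.90 ± 0.07, edgeR adjusted p = 9.56e-17). Krt18 and Epcam fell as well, Krt19 rose, and Krt8 and Cdh1 did not pass. Nkx2-1 and Sftpb had 1 count each over the 8 libraries and Sftpc had 0. Napsa, another marker of lung adenocarcinoma, was low at 1.32 CPM in WT and 1.07 CPM in KO and did not pass the test.

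Of all genes tested, 67.9% passed the test, 34.4% higher in KO and 33.5% lower, and 60.6% had groups whose libraries did not overlap. Beside this background, 8 of the 8 tested genes passed, of which 3 rose (Ahcy, Mtrr and Cth) and 5 fell (Mat2a, Mat2b, Ahcyl1, Mtr and Mtap). In 6 of the 8 the groups did not overlap, a share not far from that of all genes. The changes ran from a 4.04-fold rise of Cth to a 2.41-fold fall of Mat2a, and their median log2 fold change was −0.15, beside 0.01 over all genes tested. Leaving out WT replicate 4 left 5 of the 8 past the threshold, the fewest of any alternative, with Mat2b, Ahcy and Mtr lost. In bulk RNA, fewer cells that express a gene and less of its RNA per cell cannot be told apart.

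**Figure D1:**
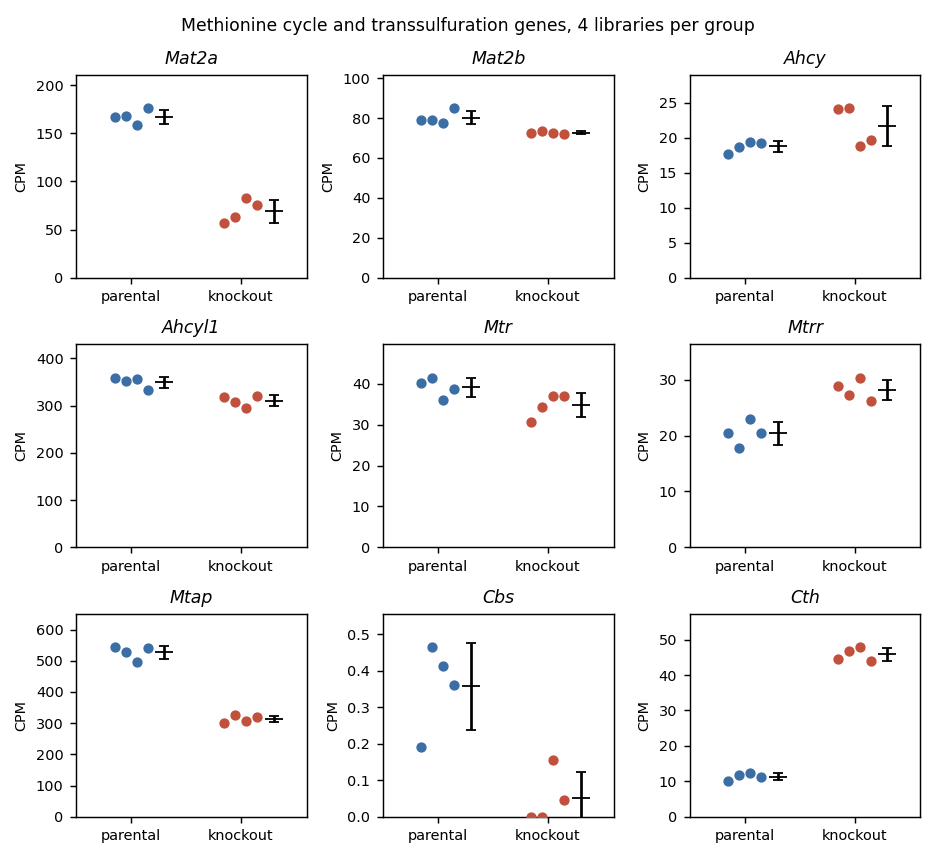
Levels of the 9 genes in CPM (one panel per gene, with its own axis from 0) in the 4 WT and the 4 KO libraries; WT libraries are labelled parental and KO libraries knockout, points are libraries in replicate order, and the black marks give the group mean with bars of 1 SD, cut at 0 for Cbs. Mat2a and Mtap sit lower in every KO library and Cth sits higher, while Ahcy and Mtr overlap between groups.

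One of the genes cannot be read alone. Ahcy (ENSMUSG00000027597.16, chromosome 2, 154901230 to 154916417, minus strand, GRCm39) encodes S-adenosylhomocysteine hydrolase, the enzyme that splits S-adenosylhomocysteine into homocysteine and adenosine. Ahcyl (ENSMUSG00000048087.7, chromosome 16, 45973348 to 45975440, minus strand, GRCm39), annotated with 1 exon against 10 in Ahcy, carries a near copy of its coding sequence. In the GENCODE M21 transcripts both coding sequences were 1296 bases long and 99.7% identical, with 4 differences, C459T, G474A, C1050T and C1068T, written with the Ahcy base first and counted from 1 at the A of the start codon. The window below at bases 737 to 787, as long as 1 sequencing read of 51 bases, is shown because it is the same in both genes, as were 1111 of 1246 such windows (89.2%). The windows at bases 424 to 474 are shown because they hold 2 of the differences, in capitals.
Ahcy and Ahcyl, bases 737 to 787: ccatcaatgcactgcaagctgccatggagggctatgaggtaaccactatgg
Ahcy, bases 424 to 474: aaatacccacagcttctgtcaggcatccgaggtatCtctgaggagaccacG
Ahcyl, bases 424 to 474: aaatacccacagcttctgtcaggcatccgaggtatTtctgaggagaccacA

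Over whole transcripts, 1843 of the 2799 different 51-base stretches of Ahcy (65.8%) also occurred in Ahcyl, and these were 90.2% of Ahcyl's own. The sum of Ahcy and its copies was at 37.1, 38.3, 35.5 and 35.3 CPM in WT and at 47.6, 46.9, 37.6 and 40.4 CPM in KO. The deposited counts gave the copy nearly as many reads as the gene: Ahcyl had 406, 423, 352 and 313 counts in WT replicates 1 to 4 and 470, 482, 484 and 445 in KO, which was 83.2% to 109% of the Ahcy count in the same library. The labels do not say how reads that fit both genes were assigned, so the split between the genes is uncertain. Their sum does not depend on the split between them, but it is too low if reads that fit both genes were not counted. With that limit, the sum is used below beside the value of Ahcy. Of the other genes, Mat2a shared 14.1% of its 51-base stretches with any other gene, Cbs 1.13%, and Mat2b, Ahcyl1, Mtr, Mtrr, Mtap and Cth shared 0.

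**Figure D2:**
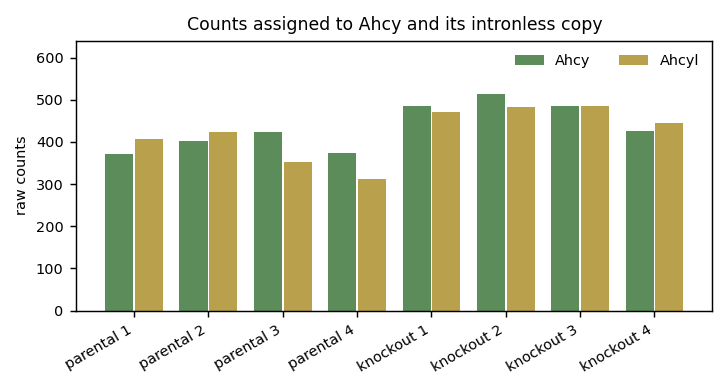
Raw counts (bars, from 0) of Ahcy and of its near copy Ahcyl in each of the 8 libraries, parental and knockout. The pair has similar counts in every library, with Ahcyl at 83.2% to 109% of Ahcy.

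SAM synthesis. The mRNA of the catalytic subunit of the enzyme fell and that of its regulatory subunit changed little. Mat2a (ENSMUSG00000053907.11, chromosome 6, 72409782 to 72416541, minus strand, GRCm39) encodes the catalytic subunit of methionine adenosyltransferase II, which makes SAM from methionine and ATP. It was at 167, 168, 158 and 176 CPM in WT replicates 1 to 4 and at 56.3, 62.7, 82.8 and 75.0 CPM in KO replicates 1 to 4. Every KO library was below every WT library, and the KO libraries differed more among themselves than the WT libraries did. Mat2a fell to 41.5% of WT, from 167 ± 7.25 to 69.2 ± 11.9 CPM (log2 fold change −1.27 ± 0.09, edgeR adjusted p = 1.54e-08). Of all genes tested, 6.62% had a larger fall. KO replicate 3, the library that stood apart, had the highest Mat2a of its group, and without it the log2 fold change was −1.37.

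Mat2a transcripts overlap Particl, an antisense long non-coding RNA at chromosome 6, 72416034 to 72417593, plus strand, GRCm39. The library kit marks strand, but the labels do not say how strand was set when reads were counted, so reads of the 2 genes may not be fully separated. Particl was at 6.13 ± 0.522 CPM in WT and 4.33 ± 0.728 CPM in KO (n = 4 each) and fell as well (log2 fold change −0.49 ± 0.14, edgeR adjusted p = 0.00347). Its count was 3.49% to 3.93% of that of Mat2a in WT and 4.51% to 7.51% in KO. Summed with Particl and the copy Gm9523, which had 0 or 1 count per library, Mat2a fell by 1.23 on the log2 scale.

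Mat2b (ENSMUSG00000042032.14, chromosome 11, 40570141 to 40586030, minus strand, GRCm39) encodes the regulatory subunit of the same enzyme. It was at 79.1, 79.2, 77.4 and 84.8 CPM in WT and at 72.7, 73.7, 72.4 and 72.1 CPM in KO. The groups did not overlap, but the step between them was small: Mat2b fell to 90.8% of WT (log2 fold change −0.14 ± 0.05, edgeR adjusted p = 0.024). That call was lost without WT replicate 4 (adjusted p = 0.105) and without KO replicate 4 (adjusted p = 0.0671), each by edgeR, and when genes with low counts were kept in the test (adjusted p = 0.0698).

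Homocysteine release. Ahcy was at 17.7, 18.7, 19.4 and 19.2 CPM in WT and at 24.1, 24.2, 18.8 and 19.7 CPM in KO. KO replicates 1 and 2 were above every other library, while KO replicate 3 lay within the WT range. Ahcy rose from 18.7 ± 0.777 to 21.7 ± 2.84 CPM (n = 4 each), a log2 fold change of 0.21 ± 0.09 (edgeR adjusted p = 0.0426). This was the least stable call of the 8, lost under 12 alternatives. Among them were the removal of any single WT library or of KO replicate 1 or 2 (edgeR adjusted p from 0.0526 to 0.149). With every library kept, it was lost by edgeR with library-size scaling (adjusted p = 0.224), upper quartile scaling (0.0584) and the replicate block (0.0605). It was also lost by DESeq2 (adjusted p = 0.0596), limma-voom (0.0625) and limma on the deposited values (0.0997). Scaling by DESeq2 size factors and the other filters kept it. Summed with its copies, Ahcy rose with a log2 fold change of 0.23 ± 0.07 (edgeR adjusted p = 0.00742). Ahcyl by itself rose by a similar amount, from 17.8 ± 1.93 to 21.4 ± 2.05 CPM (n = 4 each; log2 fold change 0.26 ± 0.09, edgeR adjusted p = 0.0148). Its call was lost without WT replicate 3 (adjusted p = 0.0608) or 4 (adjusted p = 0.0602) and with scaling by library size alone (adjusted p = 0.0894), each by edgeR, and by limma on the deposited values (adjusted p = 0.0523).

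Ahcyl1 (ENSMUSG00000027893.15, chromosome 3, 107570434 to 107603876, minus strand, GRCm39) encodes a protein related in sequence to the hydrolase, also known as IRBIT, which binds the inositol trisphosphate receptor. It is placed here for that relation in sequence alone. It was at 358, 352, 356 and 332 CPM in WT and at 319, 308, 294 and 321 CPM in KO. Every KO library was below every WT library. Ahcyl1 fell from 349.5 ± 11.9 to 310.5 ± 12.4 CPM (log2 fold change −0.17 ± 0.05, edgeR adjusted p = 0.00602).

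Remethylation. The mRNAs of methionine synthase and of the enzyme that reactivates it moved in opposite directions. Mtr (ENSMUSG00000021311.10, chromosome 13, 12197598 to 12272999, minus strand, GRCm39) encodes methionine synthase, which uses cobalamin and 5-methyltetrahydrofolate to turn homocysteine back into methionine. It was at 40.3, 41.4, 36.1 and 38.6 CPM in WT and at 30.8, 34.3, 36.9 and 37.0 CPM in KO. WT replicate 3 lay below KO replicates 3 and 4, so the groups overlapped. Mtr fell by 0.17 ± 0.07 on the log2 scale (edgeR adjusted p = 0.0382). The call was lost without WT replicate 1, 2 or 4 or without KO replicate 1 or 2 (edgeR adjusted p from 0.0586 to 0.151). With every library kept, it was lost by edgeR without the filter (adjusted p = 0.0536) and with the replicate block (0.0514), and by limma on the deposited values (0.102).

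Mtrr (ENSMUSG00000034617.8, chromosome 13, 68708899 to 68730268, minus strand, GRCm39) encodes methionine synthase reductase, which restores the oxidized cobalamin of methionine synthase. It was at 20.5, 17.8, 22.9 and 20.5 CPM in WT and at 28.9, 27.3, 30.3 and 26.2 CPM in KO. Every KO library was above every WT library. Mtrr rose 1.38-fold, from 20.4 ± 2.08 to 28.2 ± 1.82 CPM (log2 fold change 0.47 ± 0.08, edgeR adjusted p = 2.36e-05).

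Salvage. Mtap (ENSMUSG00000062937.8, chromosome 4, 89055359 to 89099318, plus strand, GRCm39) encodes methylthioadenosine phosphorylase, the first enzyme of methionine salvage. It was at 543, 529, 495 and 540 CPM in WT and at 301, 326, 307 and 319 CPM in KO. The lowest WT library was well above the highest KO library. Mtap fell 1.68-fold, to 59.5% of WT (log2 fold change −0.75 ± 0.05, edgeR adjusted p = 2.01e-11), and 13.4% of all genes tested had a larger fall. In human tumours the gene is often deleted together with its neighbour CDKN2A. Here Mtap mRNA was abundant in both groups, while Cdkn2a had 1 count over the WT libraries and 5 over the KO libraries. The neighbour Cdkn2b, an inhibitor of cyclin-dependent kinases, fell from 135 ± 3.98 to 108 ± 6.94 CPM (log2 fold change −0.32 ± 0.05, edgeR adjusted p = 1.62e-05).

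Transsulfuration. The mRNA of the second enzyme of the pathway rose strongly and that of the first was close to the limit of detection in every library. Cth (ENSMUSG00000028179.13, chromosome 3, 157599885 to 157630714, minus strand, GRCm39) encodes cystathionine gamma-lyase, which splits cystathionine to release cysteine. It was at 10.1, 11.7, 12.3 and 11.2 CPM in WT and at 44.5, 46.9, 47.8 and 44.1 CPM in KO. The groups were far apart and each was tight. Cth rose 4.04-fold, from 11.3 ± 0.914 to 45.8 ± 1.80 CPM (log2 fold change 2.01 ± 0.08, edgeR adjusted p = 1.35e-16), and 1.98% of all genes tested had a larger rise. The predicted gene Gm43314 lies within Cth on the same strand and had 1 to 15 counts per library, at most 2.37% of the Cth count.

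Cbs (ENSMUSG00000024039.16, chromosome 17, 31827868 to 31856212, minus strand, GRCm39) encodes cystathionine beta-synthase, which joins homocysteine and serine into cystathionine. It had 4, 10, 9 and 7 counts in WT replicates 1 to 4 and 0, 0, 4 and 1 counts in KO replicates 1 to 4. KO replicate 3 had as many counts as WT replicate 1, at 0.155 against 0.191 CPM. Scaled for depth, the 30 WT counts against 5 KO counts gave a WT to KO ratio of 6.35, with an exact 95% interval of 2.44 to 21.0 that covers counting error only. The gene was left out of the test by the filter on low counts. With that filter removed the log2 fold change was −2.56 (edgeR adjusted p = 0.00119). That fit gave very different p-values from the main fit for the same libraries. For Mat2a the edgeR adjusted p was 1.02e-88 against 1.54e-08, and for Mat2b it was larger, 0.0698 against 0.024. The p of Cbs is therefore not comparable with those above, and it rests on few counts.

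The order of the genes within a group is given per length, as CPM per kb of exon sequence (exon lengths of GENCODE M21), since longer transcripts give more reads. In WT, Mtap led at 163 ± 6.83 CPM per kb, followed by Ahcyl1 at 52.2 ± 1.78, Mat2a at 37.2 ± 1.62, Mat2b at 16.0 ± 0.649 and Ahcy at 6.68 ± 0.277 CPM per kb. Mtr at 4.59 ± 0.270, Cth at 4.06 ± 0.328 and Mtrr at 3.93 ± 0.400 CPM per kb overlapped from one to the next, and Cbs came last at 0.0477 CPM per kb. In KO, Mtap at 97.1 ± 3.44 and Ahcyl1 at 46.4 ± 1.86 CPM per kb still led. Cth stood next at 16.4 ± 0.646 CPM per kb, and its libraries overlapped those of Mat2a at 15.4 ± 2.66, which overlapped those of Mat2b at 14.5 ± 0.140 CPM per kb. Ahcy at 7.73 ± 1.01, Mtrr at 5.42 ± 0.350, Mtr at 4.08 ± 0.344 and Cbs at 0.00674 CPM per kb followed, with no overlap between neighbours. These places of Ahcy rest on the uncertain split with Ahcyl. Summed with its copies over the length of Ahcy, it was at 12.6 to 13.7 CPM per kb in WT, still next after Mat2b. In KO the sum was at 13.4 to 17.0 CPM per kb and overlapped Cth, Mat2a and Mat2b. These sums are themselves too low if reads that fit both genes were not counted, so the place of Ahcy stays uncertain. Cth thus moved from the group of the 3 lowest genes above Cbs to the level of Mat2a. Its KO libraries, at 15.8 to 17.1 CPM per kb, were all above those of Mat2b, at 14.4 to 14.7 CPM per kb. Mtr and Mtrr, which overlapped in WT, were separate in KO, with Mtrr the higher per kb. In CPM, without division by length, Mtr stayed the higher in KO, at 34.8 ± 2.93 against 28.2 ± 1.82 CPM. The order per kb thus rests on the exon lengths, which join the exons of all annotated transcripts of a gene.

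**Figure D3:**
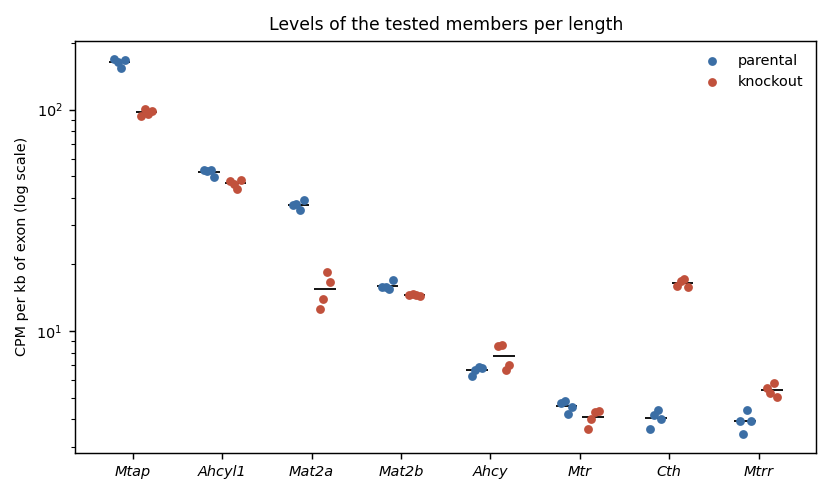
Level of the 8 tested genes in CPM per kb of exon sequence on a log axis, WT (parental, blue) beside KO (knockout, red); points are libraries and lines the means. Mtap and Ahcyl1 are highest in both groups, and Cth lies beside Mtr and Mtrr (3.93 to 4.59 CPM per kb) in WT and beside Mat2a and Mat2b (14.5 to 16.4 CPM per kb) in KO.

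Ratios of paired genes within a library do not depend on how libraries are scaled. In WT replicates 1 to 4 the log2 ratio of Mat2a to Mat2b counts was 1.07, 1.08, 1.03 and 1.05, and in KO it was −0.37, −0.23, 0.19 and 0.06. The catalytic subunit thus had more counts than the regulatory one in every WT library and about as many in KO, with KO libraries on both sides of equality. The mean fell by 1.15 on the log2 scale, from 1.06 ± 0.02 to −0.09 ± 0.26. For Mtr to Mtrr the log2 ratio went from 0.94 ± 0.23 to 0.30 ± 0.17, a difference of −0.64. For Ahcy to Ahcyl1 it went from −4.22 ± 0.10 to −3.85 ± 0.18, a difference of 0.37, or 0.40 with the Ahcy copies summed. For Cbs to Cth it went from −4.96 ± 0.42 to −9.79 ± 1.36, a difference of −4.83, in which the KO values of replicates 1 and 2 rest on 0 Cbs counts and on the 0.5 added before the logarithm. In all 4 ratios the groups did not overlap, and the exact two-sided permutation test over 70 assignments gave p = 0.0286 for each, the smallest it can give, and 0.0286 after Benjamini-Hochberg adjustment over the 4 ratios.

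**Figure D4:**
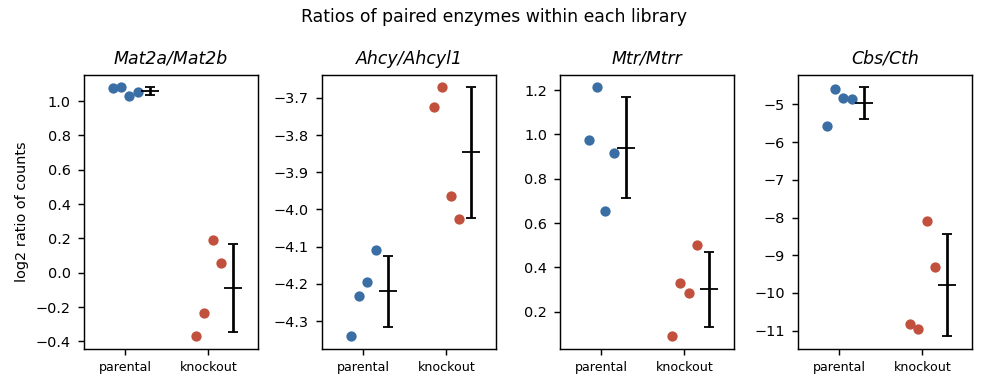
Log2 ratio of the counts of 2 paired genes within each library (0.5 added to each count), WT (parental) beside KO (knockout), 1 panel per ratio with its own axis. Points are libraries and black marks the mean with bars of 1 SD. In each panel the groups are separate, and the Mat2a to Mat2b ratio drops from 1.06 to −0.09.

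The surrounding pathway was described with 9 lists of 71 genes, of which 59 were tested. Of these, 20 rose, 25 fell and 14 did not pass, so 34.4% of all genes higher and 33.5% lower is the background for each count below, and each median stands beside 0.01 over all genes tested. On the list for the rest of the cycle, Ahcyl2, placed there as a relative of Ahcyl1 in sequence, fell from 91.9 ± 4.32 to 69.5 ± 3.59 CPM (n = 4 each; log2 fold change −0.40 ± 0.06, edgeR adjusted p = 1.2e-06). Mat1a, the methionine adenosyltransferase typical of liver, had 1 count over the 8 libraries, the betaine-dependent methyltransferases Bhmt and Bhmt2 had 0, and Gnmt, a SAM-consuming enzyme of liver, had 7 in WT and 4 in KO. Hnf4a, a liver and gut transcription factor, was present and made up nearly all of the hepatocyte list's summed level of 56.3 to 60.2 CPM in WT and 23.3 to 25.5 CPM in KO, while Ttr and Serpina1a had 0 counts in every library.

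Of 8 genes that carry or process cobalamin, the cofactor of methionine synthase, 3 rose, 3 fell and 2 did not pass (median log2 fold change 0.12). Not all of them serve methionine synthase: the list also holds Mmaa, which rose (log2 fold change 0.52 ± 0.15), and Mmab, which fell (−0.22 ± 0.09). The blood carrier Tcn2 fell from 44.4 ± 1.99 to 15.8 ± 2.73 CPM (n = 4 each; log2 fold change −1.49 ± 0.09, edgeR adjusted p = 6.7e-13). Cd320, the receptor of that carrier, fell from 12.9 ± 1.35 to 4.83 ± 0.821 CPM (log2 fold change −1.41 ± 0.12, edgeR adjusted p = 6.9e-10). Abcd4, which exports cobalamin from lysosomes, rose from 84.3 ± 3.45 to 117 ± 7.73 CPM. Mmadhc, which directs cobalamin inside the cell, rose from 61.0 ± 1.38 to 70.2 ± 2.84 CPM (log2 fold change 0.20 ± 0.05), a call lost when libraries were scaled by their size alone (edgeR adjusted p = 0.0689).

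Of 6 further genes listed under salvage, 2 rose, 1 fell and 3 did not pass (median 0.03). Apip, an enzyme of the middle part of the route, rose from 8.28 ± 1.07 to 15.7 ± 0.864 CPM (log2 fold change 0.93 ± 0.10). Il4i1, an amino acid oxidase that is not itself a step of the route, rose with a log2 fold change of 0.98 ± 0.21. Its level was low, at 1.33 CPM in WT and 2.63 CPM in KO. Mri1, the isomerase that follows Mtap, fell by 0.49 ± 0.07 on the log2 scale. The polyamine branch, which consumes SAM and releases the substrate of Mtap, had 1 gene up and 3 down of 4 (median −0.60). Odc1, which makes putrescine, rose from 609 ± 20.1 to 1492 ± 125 CPM (n = 4 each; log2 fold change 1.29 ± 0.06, edgeR adjusted p = 2.39e-14). The mRNAs of the enzymes that use decarboxylated SAM fell. That of the spermidine synthase Srm went from 89.9 ± 2.18 to 55.7 ± 3.88 CPM and that of the spermine synthase Sms from 72.7 ± 1.22 to 44.2 ± 5.47 CPM. Amd1, which decarboxylates SAM, fell as well, from 61.7 ± 2.49 to 43.5 ± 6.0 CPM (log2 fold change −0.50 ± 0.08).

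Of 8 tested transporters of methionine and cystine, 3 rose, 3 fell and 2 did not pass (median 0.05). The subunits of the large neutral amino acid transporter, Slc7a5 and Slc3a2, rose with log2 fold changes of 1.52 ± 0.07 (edgeR adjusted p = 3.89e-15) and 1.28 ± 0.05 (edgeR adjusted p = 1.17e-15), Slc7a5 from 151 ± 9.71 to 432 ± 45.4 CPM and Slc3a2 from 141 ± 4.59 to 343 ± 18.9 CPM. The third riser, Slc7a8, a related transporter, had 3 counts in WT and 698 in KO, a KO to WT ratio of 220 with an exact 95% interval of 74.9 to 1068 for counting error only. On the log2 scale Slc7a7 fell by 0.56 ± 0.09 and Slc43a2 fell by 0.60 ± 0.11. Slc7a11, the cystine importer, did not pass, at 51.6 ± 4.03 CPM in WT and 46.4, 55.5, 84.4 and 60.8 CPM in KO replicates 1 to 4 (edgeR adjusted p = 0.226). Its highest value was in KO replicate 3.

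Of 12 tested genes that act on cysteine or on sulfide, 3 rose, 7 fell and 2 did not pass (median −0.52). The mRNAs of the enzymes of glutathione synthesis, which lies after Cth, were all lower. Gclc, the catalytic subunit of glutamate-cysteine ligase, fell 7.12-fold, from 370 ± 23.7 to 52.0 ± 1.97 CPM (n = 4 each; log2 fold change −2.83 ± 0.06, edgeR adjusted p = 2.81e-21). Its modifier subunit Gclm fell from 67.5 ± 3.67 to 28.1 ± 1.35 CPM (log2 fold change −1.26 ± 0.06), and glutathione synthetase, Gss, fell by 0.78 ± 0.06 on the log2 scale. Of the mitochondrial enzymes of sulfide oxidation, Tst fell by 0.87 ± 0.07 and Ethe1 fell by 0.78 ± 0.07 on the log2 scale, while Sqor, the first of the route, did not pass, at 163 ± 9.30 CPM in WT and 161 ± 4.51 CPM in KO (edgeR adjusted p = 0.821). Ado, a thiol dioxygenase, and Kyat1, which also acts as a cysteine conjugate lyase, rose with log2 fold changes of 0.31 ± 0.06 and 0.37 ± 0.07.

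Of 14 tested methyltransferases that use SAM, 5 rose, 5 fell and 4 did not pass (median −0.02). Coq3 of ubiquinone synthesis and Mettl3, the catalytic subunit of the main mRNA N6-adenosine methyltransferase, rose with log2 fold changes of 0.78 ± 0.08 and 0.64 ± 0.09. Gamt, which makes creatine, fell from 10.1 ± 0.464 to 4.41 ± 1.08 CPM (log2 fold change −1.19 ± 0.14), and Pcmt1, which repairs aged proteins, fell by 0.29 ± 0.06 on the log2 scale. Among 4 genes that sense SAM or act on Mat2a RNA, 2 rose, 1 fell and 1 did not pass (median 0.12). Mettl16, which methylates hairpins of Mat2a mRNA and takes part in its splicing, fell from 30.6 ± 1.65 to 25.0 ± 1.96 CPM (log2 fold change −0.29 ± 0.07, edgeR adjusted p = 0.00124). Bmt2, also known as SAMTOR, a SAM sensor upstream of mTORC1, rose with a log2 fold change of 0.34 ± 0.06. Ythdc1, a nuclear reader of methylated RNA, rose with a log2 fold change of 0.16 ± 0.05 (edgeR adjusted p = 0.0156), a call lost when libraries were scaled by their size alone (edgeR adjusted p = 0.254).

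**Figure D5:**
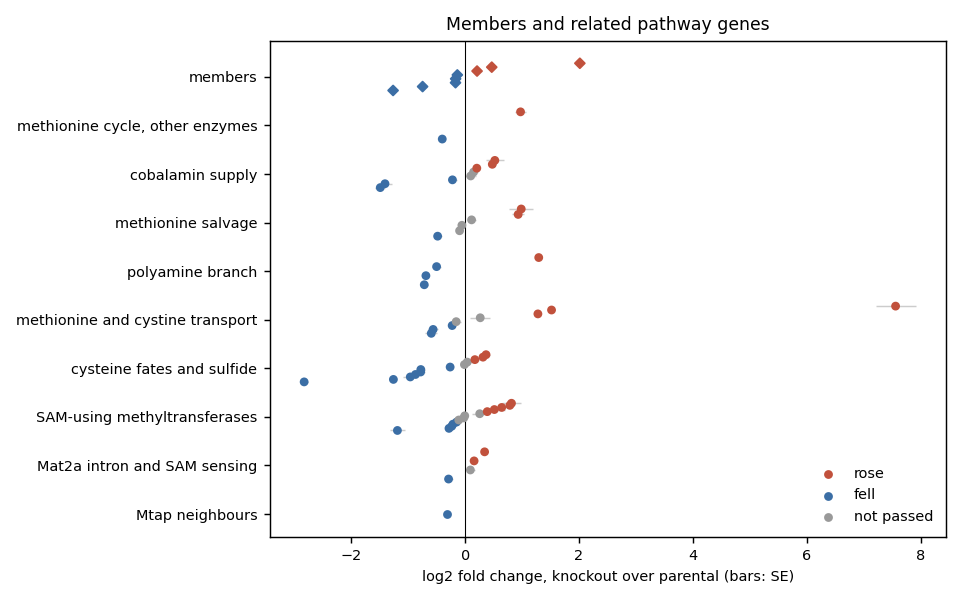
Log2 fold change of KO over WT with its standard error (x axis). The 8 tested genes of the 9 are in the top row (diamonds), and every tested gene of the 9 pathway lists is below (1 row per list). Colours mark genes that rose, fell or did not pass. Gclc (−2.83) lies farthest left, and Slc7a8 farthest right on a fitted value that rests on 3 WT counts.

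The genes whose log2 CPM followed Mat2a most closely over the 8 libraries were Smarcc1, a chromatin remodelling subunit (Pearson r = 0.997), Tsr1, a ribosome assembly factor (r = 0.997), and Nolc1, a nucleolar protein (r = 0.996). For Cth they were Trim29 (r = 0.999), Phf19 (r = 0.999) and Spidr (r = 0.999). These 8 points share the step between the groups, and 1371 genes had r above 0.95 with Mat2a and 1707 with Cth, so the values describe genes that take the same step and are not a measure of a link.

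The promoter windows of RefSeq (GRCm38.p6, 250 bases before to 50 after the start) held 11 promoters of 8 of the 9 genes, all but Cth. They were searched on both strands for TGATGNAA, the core of the ATF4-type composite element, for TGACGTCA, the full cAMP response element, and for CACGTG, the E-box. TGATGNAA was in none of the 11, and in 1304 of 32851 promoters in the table (3.97%). TGACGTCA, in 1.79% of all promoters, was found in a promoter of Ahcyl1, 104 bases before its start, and not in the other Ahcyl1 promoters listed. CACGTG, in 7.15%, was found in Cbs, 229 bases before the start. Both stretches are shown with the match in capitals, as the sole matches found; no binding was measured.
Ahcyl1, chr3:107696637-107696684, minus strand, GRCm38.p6: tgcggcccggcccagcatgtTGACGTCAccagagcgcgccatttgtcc
Cbs, chr17:31637409-31637454, minus strand, GRCm38.p6: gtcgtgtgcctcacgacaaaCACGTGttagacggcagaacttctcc

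Some markers of other cell types were present and moved with the groups. The leukocyte list summed to 77.5 to 88.9 CPM in WT and 43.5 to 56.5 CPM in KO, nearly all of it from Cd68, which fell from 48.9 ± 2.82 to 19.2 ± 5.11 CPM, and Cd14, which fell from 33.5 ± 2.33 to 29.3 ± 2.02 CPM. On that list Adgre1 had 0 counts and Ptprc 1 count over the 8 libraries. The fibroblast list summed to 3.92 to 5.72 CPM in WT and 2.03 to 3.07 CPM in KO, with Col1a2 and Lum at 0 counts. Of its genes, Col1a1 fell from 3.68 ± 0.609 to 2.32 ± 0.411 CPM and Col3a1 fell from 74 counts over the WT libraries to 3 over the KO libraries. The endothelial list summed to 1.93 to 3.66 CPM in WT and 3.53 to 5.00 CPM in KO, with Kdr at 0. On it Cdh5 rose from 1.36 ± 0.327 to 4.17 ± 0.624 CPM and Vwf fell from 1.56 ± 0.496 to 0.125 ± 0.0624 CPM. The epithelial list, at 9310 to 9795 CPM in WT and 8010 to 8963 CPM in KO, was also lower in KO. Its genes Krt7, Krt18 and Epcam fell and Krt19 rose. The part of these lists in the differences above was not tested.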

How the data were processed

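Polyadenylated RNA of 8 Lacun3 cultures was sequenced in pairs of 51-base reads from stranded libraries made from 100 ng of RNA, per the labels' protocols. Per the submitters' processing notes, FastQC 0.11.8, STAR 2.7.9a and featureCounts 1.6.0 were used with the GRCm39 build, as were edgeR and limma; how strand and multi-mapped reads were set is not given in these sources. A table of raw counts that the authors deposited covers 56884 genes, of which 27134 had a count, and a second deposited table holds voom log2 CPM values for 15726 genes, which served here as an alternative.

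The counts were fitted with edgeR 4.0.16 in R 4.3.3 (TMM scaling, the default filter on low counts, robust quasi-likelihood test, genotype as sole term), and p-values were adjusted over 13707 genes. Ratios were computed in Python 3.11.15 with scipy 1.17.1 after adding 0.5 to each count. Gene lengths and transcripts came from GENCODE M21 and promoters from RefSeq. Total counts of 18837263 to 25715008 per library set the precision, and intervals and floors of 3 counts cover counting error only.

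Genes named in the text were Stk11, the 9 genes, in each list the 2 genes higher and the 2 lower with the lowest adjusted p, and the 3 genes most correlated with Mat2a and with Cth, without predicted genes. Amd1, Gss, Slc7a8, Slc7a11, Tst, Ethe1, Sqor, Mmaa, Mmab, the untested genes of the lists, the cell type markers and the genes that overlap or copy one of the 9 were named outside that rule after their values were seen. One gene that the rule names is not reported here. The genes and the lists were chosen with earlier results of these data known. On data simulated for the KO against WT comparison, 200 of 13707 genes were changed, as many up as down. There the test recovered 86.6% of 1.5-fold, 94% of 2-fold and 98.5% of 4-fold changes, with 3.63% false calls. In the measured data 67.9% of genes passed, a far larger share, so these rates need not hold for it. Alternatives were other scalings and filters, the replicate number as a block, DESeq2 1.42.0, limma-voom and limma 3.58.1 on the deposited log2 values, and each library left out. Sums with gene copies were added after seeing the data.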

Additional observations from a re-analysis of the deposited data

Results flagged for a closer look

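In 5 of the 88 groups of 4 libraries examined, 1 library lay apart from the other 3 by more than the 95% limit of Dixon's test, which chance exceeds in about 1 of 20 groups. These were Abcd4 in WT at 79.1 CPM (the others from 85.8 to 86.1), Mmadhc in KO at 74.4 CPM (the others from 68.4 to 69.0), Sms in WT at 74.5 CPM (72.0 to 72.3), Ado in KO at 56.7 CPM (52.2 to 52.9) and Particl in WT at 6.90 CPM (5.81 to 5.98). None of the 9 genes had such a library in either group.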

How the results depend on the processing

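No direction reversed under any of the alternatives run. Mat2a, Ahcyl1, Mtrr, Mtap and Cth passed in all of them, and Mat2b, Ahcy and Mtr lost the call in 3, 12 and 8. With 1 library left out, the genes of the 9 that fell numbered 3 to 5 (3 without WT replicate 4) and those that rose 2 to 3, and the genes passing in all numbered 8905 to 9634, against 9311 with every library; the range over the alternatives was 8719 to 10163. Scaling by library size alone gave 3909 genes higher and 5258 lower, against 4716 and 4595, and a median log2 fold change of −0.07 against 0.01. Replicate numbers are shared between groups, but same-numbered libraries did not deviate together (correlations 0.0352, −0.00771, −0.121 and 0.0034), and not every library correlated best with its own number. With the replicate block 9109 genes passed, and 6 of the 8 tested genes: Ahcy (adjusted p = 0.0605) and Mtr (0.0514), by edgeR, did not. For the ratios, differences of −1.15 (Mat2a to Mat2b), 0.37 (Ahcy to Ahcyl1), −0.64 (Mtr to Mtrr) and −4.83 (Cbs to Cth) under the block had an exact p of 0.125, the smallest that 4 pairs allow. With 1 library left out they ran from −1.24 to −1.05, 0.31 to 0.43, −0.74 to −0.55 and −5.40 to −4.45, with an exact p of 0.0571, the smallest that 3 against 4 allow. The Cbs to Cth ratio without added counts was not run, since KO libraries held 0. In the salvage list 2, 3 and 2 genes fell under upper quartile scaling, library-size scaling and DESeq2, against 1, and among genes that sense SAM 1 rose under library-size scaling, against 2; the cause was not tested. Depth limits Cbs most: its fitted log2 fold change was −2.56 without the filter and −2.81 by limma on the deposited values.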
